A study of Mus musculus with 6 samples.

Results

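The 100 features most specific to Nms+ neurons were selected on their measured level out of 32285 rows of the count tables. Raw UMIs (unique molecular identifiers, 1 per captured transcript) were summed over the PND10 and PND30 nuclei of each annotated cluster and scaled to counts per 1000000 UMIs of the cluster (CPM). Of the 3633 rows with at least 50 CPM in Nms+ nuclei, the 100 with the largest ratio of (CPM + 5) in Nms+ nuclei over the highest of the 8 other clusters were taken, which is 2.75% of them. The difference between Nms+ nuclei and the other clusters is therefore a property of the choice and is described here without a test. The rows carry no gene names in the files used here, so a feature is called by its place in the order of this ratio, feature 1 having the largest. For the same reason the Nms+ label could not be checked against Nms or any other marker, and it is used as the authors' annotation gives it.

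Nms encodes neuromedin S, a neuropeptide of the suprachiasmatic nucleus (SCN), the hypothalamic nucleus that keeps circadian time and is set by light through the retina. Neurons that make neuromedin S are known as part of the network that holds the cellular clocks of the SCN in a common rhythm. They overlap with the neurons that make arginine vasopressin (Avp), which lie mainly in the dorsal shell, and with those that make vasoactive intestinal peptide (Vip), which lie in the ventral core where retinal fibres end. Cck encodes the neuropeptide cholecystokinin, which marks a further group of SCN neurons.

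Nuclei came from the micro-dissected SCN of wild-type C57BL6/J mice of both sexes, without any treatment, and the tissue of 10 animals was pooled at each stage. Gestational day 17.5 (GD17.5) and postnatal day 2 (PND2) gave 1 library each, and PND10 and PND30 gave 2 each. The placed nuclei held between 10921890 UMIs in PND30 replicate 1 and 31389145 UMIs in PND2, and at most 9 annotated barcodes were shared by any pair of libraries. According to the paper, libraries of PND10 and PND30 were prepared and sequenced a second time to gain cells and to check for batch effects. In a figure legend the paper calls the 2 libraries of these stages independent replicates, which clustered together without batch correction. Neither the paper nor the labels state that the libraries of a stage came from separate animals. The p-values therefore cover the spread between libraries only, which may be technical.

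Nms+ nuclei came almost wholly from 1 library. Of the 669 Nms+ nuclei, 657 were in PND30 replicate 2, 7 in PND30 replicate 1 and 5 in PND10 replicate 2, and none was in PND10 replicate 1, PND2 or GD17.5. PND30 replicate 2 thus gave 97.6% of the UMIs of the Nms+ nuclei on which the features were chosen. The other clusters of the rule drew on the PND10 and PND30 libraries together. Its nuclei were shallow, with a median of 3088 UMIs in Nms+ and 3296 UMIs in Avp+ nuclei, whereas Avp+ nuclei of PND30 replicate 1 had a median of 12128 UMIs. Properties of this library and of Nms+ neurons cannot be told apart where the Nms+ nuclei are compared with nuclei of other libraries. A lower level in a cluster can mean fewer transcripts per nucleus or fewer nuclei of the kind that carries them.

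The ratio that chose the features ran from 4.22 for feature 1 to 1.45 for feature 100, with a median of 1.78. It was at least 3 for 8 features and at least 2 for 32. The order ended without a gap, since features 99 and 100 had ratios of 1.4463 and 1.4458 and the next row, left out, had 1.4436. Most features were thus less than 2-fold above the next cluster and marked Nms+ nuclei by degree.

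The cluster with the next highest level was Avp+ for 48 features, Vip+ for 17 and Cck+ for 14, so that 79 of the 100 were shared most closely with another class of SCN neurons. For 19 features the next cluster was not neuronal: microglia for 6, NG2 cells/OPCs (precursors of oligodendrocytes) for 5, and mature astrocytes and mature oligodendrocytes for 4 each. Extra-SCN neurons were next for the remaining 2. Summed over the 100 features, the share of UMIs was 4.90% in Nms+ nuclei, 2.29% in Avp+, 1.54% in Vip+ and 1.33% in Cck+ nuclei. In extra-SCN neurons it was 0.979%, and in mature astrocytes 0.512%, the lowest of the 9 clusters.

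**Figure D1:**
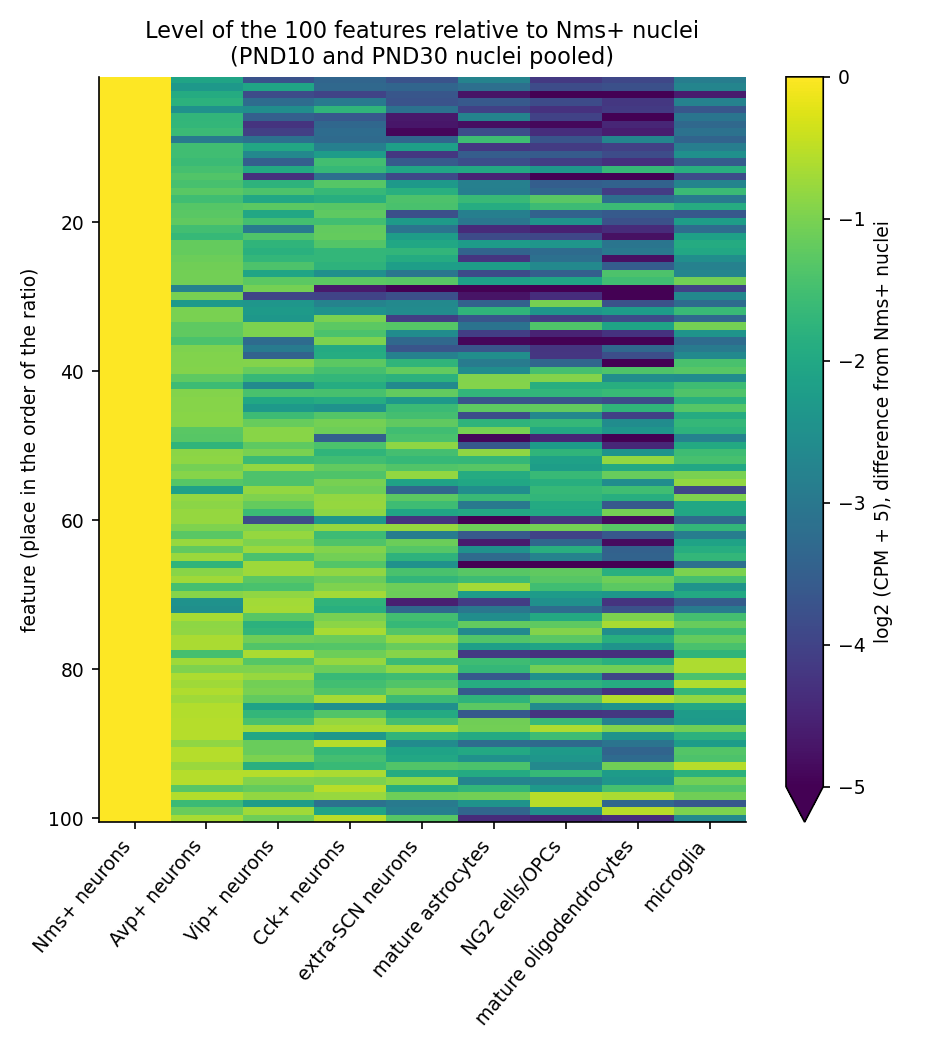
Each row is 1 of the 100 features in the order of the ratio that chose it, and each column is a cluster with the PND10 and PND30 nuclei pooled. The colour gives log2 (CPM + 5) minus the value in Nms+ nuclei, so that the first column is 0 by construction. The Avp+ column is the lightest of the others and most rows are dark in the glial columns.

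Levels in Nms+ nuclei spanned a wide range, from 53.5 to 7449 CPM with a median of 177 CPM. The 10 features of highest level held 52.5% of all UMIs on the list, so that a summed level describes mainly these 10. Feature 30 was the most abundant, at 7449 CPM in Nms+ and 3642 CPM in Avp+ nuclei. It is named here, like every feature outside the rule given in the methods, after its values were seen.

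Among the first 10 features, those next to Avp+ nuclei differed in how far they stood apart within the library that holds the Nms+ nuclei. Feature 1 was at 148 CPM in Nms+ nuclei of PND30 replicate 2 and at 78.1 CPM in Avp+ nuclei of the same library, while Avp+ nuclei of PND30 replicate 1 had 27.2 CPM and those of PND10 had 13.5 and 11.1 CPM. Feature 3 was at 314 CPM in Nms+ nuclei, 143 and 90.9 CPM in Avp+ nuclei of PND30 replicates 2 and 1, and 41.2 and 43.4 CPM in those of PND10. For both features, the ratio of 4.22 and 3.80 over pooled Avp+ nuclei thus fell to 1.84 and 2.15 within PND30 replicate 2, because the pooled Avp+ nuclei include those of the other 3 libraries, which were lower.

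Features 7 and 8 followed the same order. Feature 7 was at 296 CPM in Nms+ and 161 CPM in Avp+ nuclei of PND30 replicate 2, and at 100.2 CPM in Avp+ nuclei of replicate 1. Feature 8 was at 325, 188 and 122 CPM in the same 3 groups. Within PND30 replicate 2 their ratios were 1.81 and 1.71.

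Features 4 and 6 were similar in Avp+ nuclei of both PND30 libraries. Feature 4 had 110 CPM in Nms+ nuclei, and 38.0 and 35.7 CPM in Avp+ nuclei of replicates 1 and 2. Feature 6 had 317 CPM in Nms+ nuclei, and 116 and 105 CPM in Avp+ nuclei. In Nms+ nuclei of PND30 replicate 2 both were thus well above Avp+ nuclei of either library, with ratios of 2.84 and 2.92 within replicate 2. This was not seen in the 7 Nms+ nuclei of replicate 1, which had 0 UMIs of both features. For feature 6, 3 counts there would give 62.3 CPM, below the 116 CPM of Avp+ nuclei of that library.

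The remaining members of the first 10 had another neighbour than Avp+ nuclei, either pooled or within PND30 replicate 2. Feature 2, next to Vip+ nuclei, was at 134 CPM in Nms+ and 29.6 CPM in Vip+ nuclei of PND30 replicate 2, a ratio of 4.01. Feature 5, next to Cck+ nuclei, was at 457 CPM in Nms+ and 142 CPM in Cck+ nuclei, a ratio of 3.14. Feature 10 was at 244 CPM in Nms+ nuclei and at 57.9 CPM in Vip+ nuclei, which were the next cluster there, a ratio of 3.95. These 3 features kept the separation of the pooled nuclei within the single library. The Avp+ level of feature 10 was at least 2-fold lower there than in PND30 replicate 1. In the 7 Nms+ nuclei of PND30 replicate 1, features 2, 5 and 10 had 0, 9 and 4 UMIs.

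Feature 9 was the exception among the first 10. It was at 68.8 CPM in Nms+ nuclei of PND30 replicate 2 and at 83.8 CPM in mature astrocytes of the same library. Mature astrocytes had 28.5 CPM in PND30 replicate 1, and 2.94 and 3.32 CPM in PND10. Its pooled ratio of 2.95 therefore rested on pooling astrocytes of 4 libraries, and within PND30 replicate 2 it was 0.831.

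Within PND30 replicate 2 alone, where cluster levels are not mixed with differences between libraries, 91 of the 100 features were higher in Nms+ nuclei than in each of the 8 other clusters of the rule. The ratio over the highest other cluster had a median of 1.46 (range 0.515 to 4.92) and was at least 2 for 18 features, compared with 32 in the pooled nuclei. Over Avp+ nuclei of the same library the median was 1.73, and 4 features were below 1. The median over all 3633 eligible rows was 0.948. The Nms+ levels in these ratios come from nearly the same nuclei as the choice and give it no independent support.

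Features 31, 2, 10, 17 and 98 had the largest ratios within PND30 replicate 2, from 3.72 to 4.92. Feature 31 was at 545 CPM in Nms+ nuclei and at 107 CPM in NG2 cells/OPCs, the next cluster, where the PND10 libraries had 296 and 269 CPM. Feature 98 was at 79.7 CPM in Nms+ nuclei and 17.8 CPM in NG2 cells/OPCs, against 45.7 and 62.7 CPM at PND10. In NG2 cells/OPCs of PND30 replicate 1 (15 nuclei) features 31 and 98 were at 207 and 51.7 CPM, near PND10, so that PND30 replicate 2 was the lowest of these 4 libraries. The levels of features 31 and 98 in its 46 NG2 cells/OPCs stood for 12 and 2 UMIs. For feature 98 this was below the 26.7 CPM that 3 counts would give. Its large ratio and its lowest place in this library thus rest on very few counts. For both, pooling with the other libraries lowered the ratio, to 2.03 and 1.45.

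The 9 features below 1 within PND30 replicate 2 were features 55, 67 and 96, which were higher in microglia, features 9 and 51, higher in mature astrocytes, and features 83, 86, 89 and 100, higher in Avp+ nuclei. Feature 55 had the lowest ratio, with 65.2 CPM in Nms+ nuclei and 131 CPM in microglia. Only 34 microglia with 60967 UMIs were in this library, so that 131 CPM stands for few counts. Feature 89 was at 175 CPM in Nms+ and 227 CPM in Avp+ nuclei of this library.

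**Figure D2:**
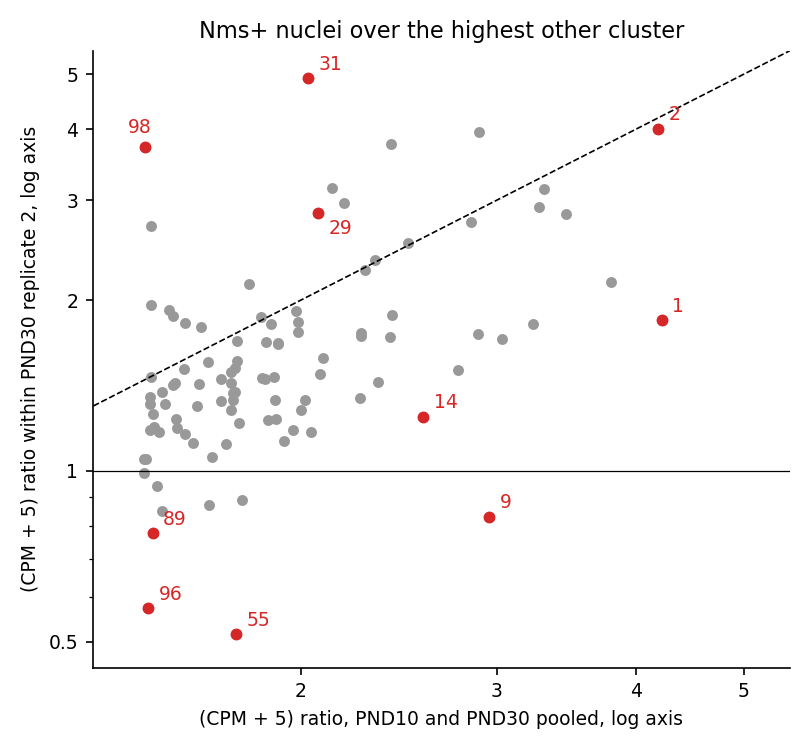
Each point is 1 of the 100 features. The horizontal log axis gives the (CPM + 5) ratio of Nms+ nuclei over the highest other cluster with PND10 and PND30 pooled, the vertical log axis the same ratio within PND30 replicate 2, the dashed line is equality and the solid line a ratio of 1. Red points carry the number of the feature. Most points lie below the dashed line, 9 lie below 1, and feature 31 is the highest at 4.92.

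The features were spread over the Nms+ nuclei and did not come from a few of them. In PND30 replicate 2, a feature had a UMI in a median of 37.5% of the 657 nuclei (range 15.4% to 98.9%). In 37 features at least 50% of nuclei had a UMI, and in 10 features fewer than 20%. The 7 nuclei with most UMIs of a feature held a median of 8.53% of its UMIs and at most 20.4%, in feature 9. The share of UMIs on the 100 features was 4.92% in nuclei below the median depth and 4.95% in those above it.

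To compare single nuclei at 1 depth, each nucleus with at least 1500 UMIs was thinned at random to 1500 UMIs. In PND30 replicate 2, 584 Nms+ nuclei were kept and 73 were left out, and the median Nms+ nucleus had UMIs of 33 features (quartiles 29 and 36). The medians were 21 in Avp+, 16 in Vip+, 15 in Cck+ and 12 in extra-SCN neurons. Mature astrocytes had a median of 8, which includes any free RNA in the droplets. Without thinning, the medians were 47 in Nms+ nuclei, 32 in Avp+ nuclei and 11 in mature astrocytes of this library.

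Single features varied in which cluster came next at this depth. Feature 5 had a UMI in 44.2% of thinned Nms+ nuclei (95% Clopper-Pearson interval 40.1% to 48.3%), in 19.4% of Cck+ nuclei and in 13.9% of Avp+ nuclei. In mature astrocytes it had a UMI in 3.04%. Feature 2 had a UMI in 19.0% of Nms+ nuclei, 3.18% of Vip+ nuclei and 2.03% of astrocytes, so that its share in Vip+ nuclei was close to that in glia. Feature 9 had a UMI in 7.88% of Nms+ nuclei and 8.78% of astrocytes. Intervals cover counting error only.

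Some Avp+ nuclei carried as many of the features as Nms+ nuclei. A thinned nucleus with UMIs of 29 features or more lay at or above the lower quartile of Nms+ nuclei, a limit set after the values were seen. In PND30, 34 of 348 thinned Avp+ nuclei of replicate 1 (9.77%, interval 6.86% to 13.4%) and 126 of 1162 of replicate 2 (10.8%, 9.11% to 12.8%) reached it. In PND10, 5 of 342 (1.46%) and 10 of 1487 (0.672%) did so. Both PND30 libraries thus had a larger share of such Avp+ nuclei than both PND10 libraries. The choice of features favours this direction, since the Nms+ nuclei were nearly all from PND30. The shares of the PND30 libraries were alike, and their Nms+ nuclei numbered 7 and 657. Intervals cover counting error within a library only, and the difference between stages was not tested. In Vip+ nuclei the share was at most 1.78%, in PND30 replicate 2, and in extra-SCN neurons no nucleus reached the limit in any library.

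The few Nms+ nuclei of other libraries had a lower summed level. The choice of features favours this direction, since nearly all Nms+ UMIs it used came from PND30 replicate 2. The 7 Nms+ nuclei of PND30 replicate 1 had 3.27% of their UMIs on the 100 features (exact Poisson interval 3.11% to 3.44%), and the 5 of PND10 replicate 2 had 3.05% (2.65% to 3.50%), against 4.94% (4.91% to 4.97%) in PND30 replicate 2. The 7 nuclei lay above Avp+ nuclei of their own library, at 2.78%, and the 5 nuclei above Avp+ nuclei of theirs, at 1.62%. With 1 group of nuclei in each library there is no replicate check of these differences.

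Nms+ nuclei of PND30 replicate 1 departed from those of replicate 2 in single features too. The Poisson intervals of the 2 libraries did not overlap for 32 features, of which 30 were lower and 2 higher in replicate 1, where 4.76% and 4.95% of the 3633 eligible rows were lower and higher. Nothing is read from this excess of lower values, which the choice favours too. Feature 6 had 0 UMIs among 48121 in the 7 nuclei, where the level of 317 CPM in replicate 2 would give 15.2 UMIs. Features 2 and 4 had 0 UMIs as well, where 6.43 and 5.32 would be given by the level of replicate 2. A count of 0 allows up to 62.3 CPM here (3 counts), below the 134, 110 and 317 CPM of features 2, 4 and 6 in replicate 2. In all, 9 features had 0 UMIs in these 7 nuclei.

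In Avp+ nuclei of PND30, the summed level of the features was similar in both libraries, but single features differed strongly. The sum was 2.78% of UMIs (Poisson interval 2.77% to 2.80%) in the 350 nuclei of replicate 1 and 3.06% (3.05% to 3.08%) in the 1268 nuclei of replicate 2, a ratio of 1.10. The median ratio over the 100 features was 1.03, and without the 10 features of highest Nms+ level the ratio of the sums was 0.983, so that the direction rested on those 10. Between replicates 1 and 2, 4 of the 100 features were at least 2-fold higher and 7 at least 2-fold lower in replicate 2. Among 12090 rows with at least 5 CPM in either library, 1.26% were 2-fold higher and 0.877% 2-fold lower. Among the 3633 rows eligible for the list, the shares were 1.27% and 1.71%. With 1 library on each side these are descriptions of the libraries, with no test.

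Feature 14 differed most between the libraries in favour of replicate 2. It was at 303 CPM in Avp+ nuclei of PND30 replicate 1 and at 1714 CPM in those of replicate 2, a ratio of (CPM + 5) of 5.59. At PND10 it was at 342 and 783 CPM in replicates 1 and 2, a ratio of 2.27. Replicate 2 was thus the higher library at both stages, and the level of Nms+ nuclei of PND30 replicate 2 was 2137 CPM, not far above that of Avp+ nuclei there. Vip+ nuclei were also higher in replicate 2 at each stage, with 32.2 and 70.2 CPM at PND10 and 72.7 and 179 CPM at PND30. Feature 1, described above, had the next largest ratio, 2.58.

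Features 29 and 31 were lowest in Avp+ nuclei of PND30 replicate 2 relative to replicate 1. Feature 29 was at 549 CPM in replicate 1 and 112 CPM in replicate 2, a ratio of 0.212, and at 991 and 278 CPM in the same replicates of PND10. Its level in Vip+ nuclei was 1470 and 1723 CPM at PND10 and 1240 and 1029 CPM at PND30, and in Nms+ nuclei of PND30 replicate 2 it was 2940 CPM. The difference between replicates in Avp+ nuclei was thus of a size not seen in Vip+ nuclei. Feature 31 was at 187 CPM in replicate 1 and 69.1 CPM in replicate 2 of PND30, a ratio of 0.386, and at 96.02 and 75.5 CPM in PND10.

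The 7 features that were 2-fold lower in Avp+ nuclei of PND30 replicate 2 were features 10, 12, 26, 29, 31, 36 and 98. Within replicate 2 all 7 were at least 3.14-fold higher in Nms+ than in Avp+ nuclei, and feature 29 was 25.1-fold higher, where the median of the 100 features was 1.73. Both measures contain the Avp+ level of replicate 2, so that a low value there enters both. Avp+ nuclei made up 45.4% of the nuclei of replicate 1 and 23.2% of replicate 2, and Nms+ nuclei 0.908% and 12.0%. Whether nuclei of 1 kind were annotated differently in the 2 libraries was not tested.

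**Figure D3:**
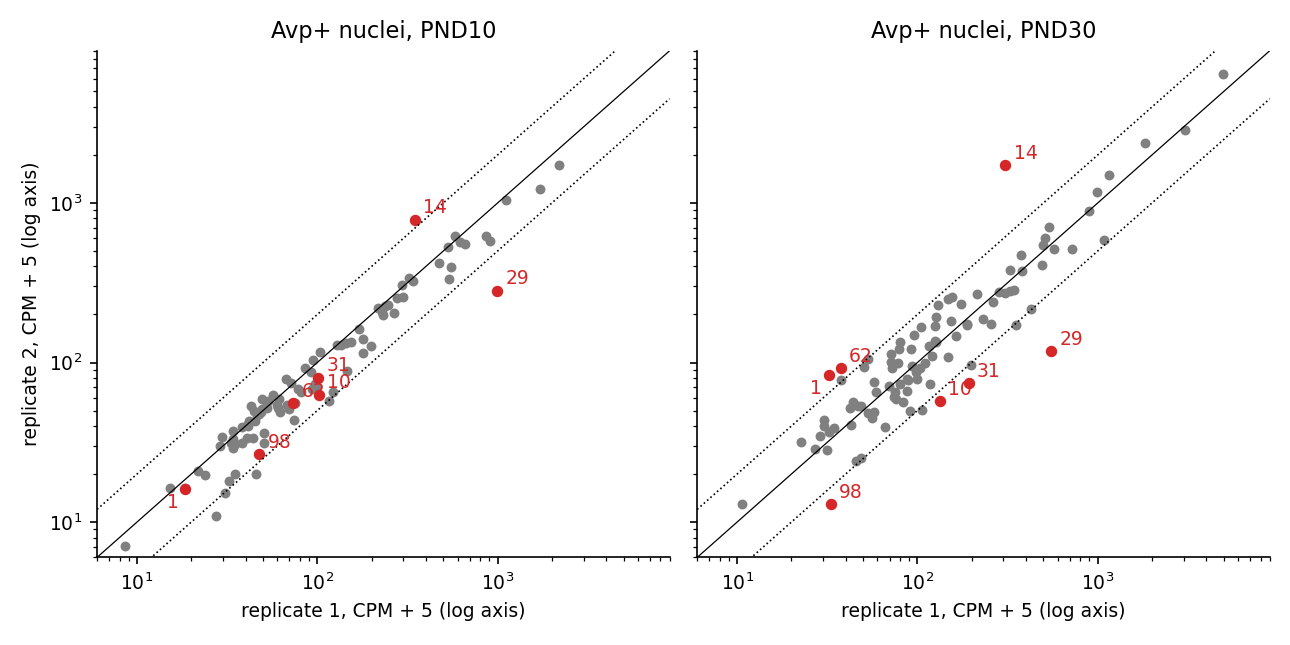
Each point is 1 of the 100 features, with CPM + 5 in Avp+ nuclei of replicate 1 on the horizontal and of replicate 2 on the vertical log axis, at PND10 on the left and PND30 on the right. The solid line is equality and the dotted lines a 2-fold difference, and red points carry the number of the feature. Feature 14 lies above the upper and feature 29 below the lower dotted line in both panels, and the points are more widely spread at PND30.

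At PND10 fewer features differed 2-fold between the Avp+ libraries than at PND30. The summed level was 1.963% of UMIs in replicate 1 (346 nuclei) and 1.62% in replicate 2 (1555 nuclei). Of 99 features with at least 5 CPM in either library, 1 was 2-fold higher in replicate 2 (feature 14) and 5 were 2-fold lower (features 2, 29, 71, 72 and 96). Among 12608 rows, 0.167% were higher and 1.44% lower, and among the 3633 eligible rows 0.0826% and 0.771%. The median ratio of the 99 features was 0.888, compared with 1.01 over all rows tested.

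The summed level of the features in Avp+ nuclei was 1.79% ± 0.24 at PND10 and 2.92% ± 0.20 at PND30 (SD, n = 2 libraries each), and both PND30 libraries lay above both PND10 libraries. The rule itself favours this direction, because Nms+ nuclei were nearly all from PND30 while the other clusters included PND10. Counts summed per library were fitted with edgeR and tested by its quasi-likelihood test. All 100 features passed the filter on low counts, and their median log2 change at PND30 was 0.64, against 0.00 over 14610 features. The change was positive in 92 of the 100 features and in 50.1% of all features tested. In 70 features both PND30 libraries were above both PND10 libraries, and in 3 both were below, compared with 19.3% and 26.9% of all features. After Benjamini-Hochberg adjustment 1 of the 100 features was called higher and none lower, where 0.0342% of all features were called higher and 0.0548% lower. At an unadjusted p under 0.05 there were 65 of the 100 features and 1998 of all 14610.

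The feature called in Avp+ nuclei was feature 89. It was at 39.5 and 44.7 CPM in the PND10 libraries and at 168 and 227 CPM in the PND30 libraries, so that the stages did not overlap. The log2 change was 2.28 (SE 0.18), with an adjusted p of 0.0466 (edgeR's quasi-likelihood test with Benjamini-Hochberg adjustment). In PND30 replicate 2 this feature was higher in Avp+ than in Nms+ nuclei. Its place on the list thus rested on the low Avp+ levels of PND10. The choice itself favours this rise, which the adjusted p does not allow for. Without PND10 replicate 1 or 2 the adjusted p was 0.173 or 0.544, and without PND30 replicate 1 or 2 it was 0.0163 or 0.00507. In Vip+ nuclei the same feature was at 39.6 and 34.4 CPM at PND10 and 43.5 and 42.6 CPM at PND30 (log2 change 0.21, adjusted p = 0.619).

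The choice of features weighed on this comparison. The same rule applied to PND30 nuclei only, an alternative added after the data had been seen, gave a list that shared 71 features with the first. On that list 76 of 100 features had a positive log2 change in Avp+ nuclei, the median change was 0.45, and none was called by edgeR, with 46 at an unadjusted p under 0.05. DESeq2 called 28 of the first 100 features in Avp+ nuclei, 27 higher and 1 lower, compared with 1 by edgeR. Over all 13371 features that DESeq2 tested, 110 were called higher and 91 lower.

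In Vip+ nuclei some features rose and others fell. Their summed level was 1.42% and 1.41% of UMIs at PND10 and 1.58% and 1.73% at PND30. All 100 passed the filter, and edgeR's quasi-likelihood test called 25 after Benjamini-Hochberg adjustment, 18 higher and 7 lower at PND30. Over 12484 features 2.75% were called higher and 3.87% lower. In 58 of the features both PND30 libraries were above both PND10 libraries and in 12 both were below, compared with 27.5% and 22.6% of all features. The median log2 change was 0.31, against 0.01 over all features. On the list chosen on PND30 nuclei only, 24 were called, 11 higher and 13 lower, the change was positive in 59 features and the median was 0.12, so that the excess of higher calls depended on the choice of features. Without PND10 replicate 1, and likewise without PND10 replicate 2, none of the 100 was called.

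Feature 86 had the smallest adjusted p in Vip+ nuclei. It was at 289 and 236 CPM in the PND10 libraries and 529 and 671 CPM in the PND30 libraries, a log2 change of 1.18 (SE 0.15, edgeR adjusted p = 0.000421). In Avp+ nuclei it was at 579 and 615 CPM at PND10 and 1143 and 1489 CPM at PND30, without overlap, a log2 change of 1.19 that did not pass the adjustment (adjusted p = 0.0911). Feature 59 rose in Vip+ nuclei from 290 and 299 CPM to 477 and 525 CPM, with a log2 change of 0.74 (SE 0.12, edgeR adjusted p = 0.00281). In Avp+ nuclei it was at 525 and 528 CPM at PND10 and at 895 and 892 CPM at PND30 (adjusted p = 0.139).

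The features lowered in Vip+ nuclei were led by features 81 and 91. Feature 81 was at 585 and 575 CPM in the PND10 libraries and at 341 and 339 CPM in the PND30 libraries, a log2 change of -0.80 (SE 0.11, edgeR adjusted p = 0.00109). Feature 91 was at 84.2 and 88.1 CPM at PND10 and 40.5 and 39.0 CPM at PND30, a log2 change of -1.16 (SE 0.18, edgeR adjusted p = 0.00195). The stages did not overlap for either. In Avp+ nuclei the log2 changes of these features were -0.38 and -1.06 without passing the adjustment (adjusted p = 0.436 and 0.247). The other 5 called lower in Vip+ nuclei were features 29, 73, 75, 92 and 98.

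Of the first 10 features, features 1, 3, 7 and 8 were among the 18 called higher in Vip+ nuclei, at low levels. Feature 3 was at 6.60 and 5.58 CPM in Vip+ nuclei at PND10 and at 17.3 and 34.3 CPM at PND30 (log2 change 2.16, edgeR adjusted p = 0.00401). All 4 also had a higher level in Avp+ nuclei of PND30 replicate 2 than in those of replicate 1. All 18 features called higher in Vip+ nuclei also had a positive log2 change in Avp+ nuclei, as did 2 of the 7 called lower. Of all 100 features, 92 had a positive change in Avp+ nuclei, a direction that the choice of features favours. The 18 of 18 is thus near the share of the whole list and by itself shows no agreement between the cell types. The 2 of 7 is below that share, and neither count was tested against it. A difference between Avp+ and Vip+ nuclei in these changes was not tested.

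**Figure D4:**
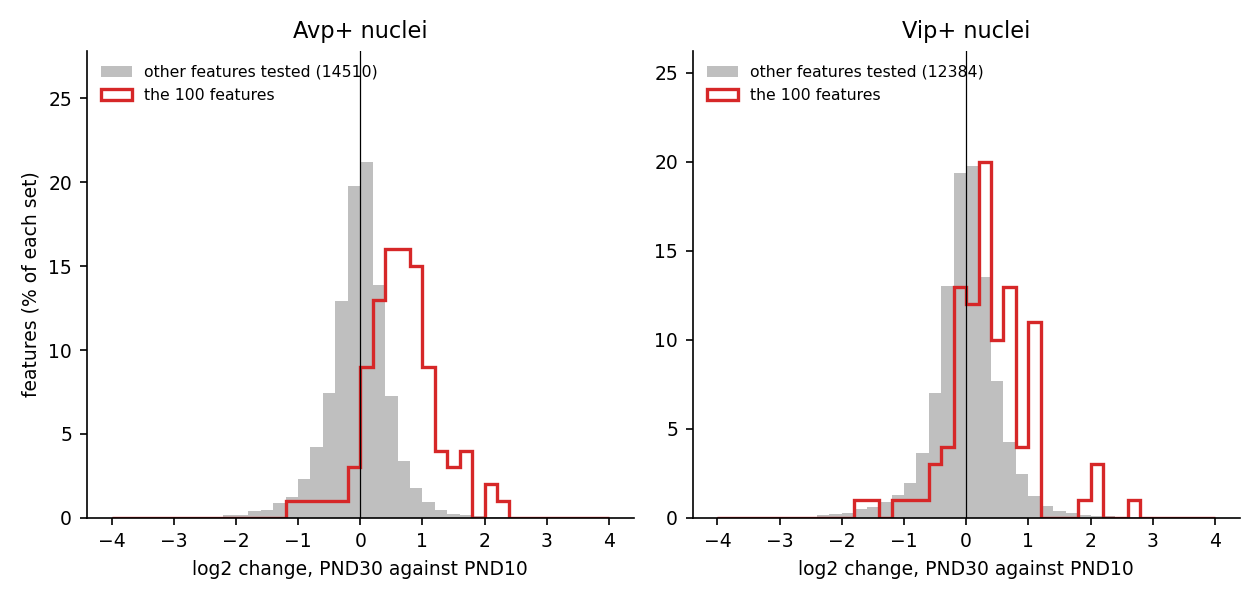
Histograms of the log2 change at PND30 against PND10 from edgeR in Avp+ nuclei (left) and Vip+ nuclei (right), with the 100 features as a red outline and all other features tested as grey bars, each as a percentage of its set. The median of the 100 features is 0.64 in Avp+ and 0.31 in Vip+ nuclei, and the other features centre on 0. The choice of the features on PND30-rich Nms+ nuclei favours positive values.

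No Nms+ nucleus was annotated at GD17.5 or PND2, and the features were followed there in early SCN neurons, the main neuronal cluster of these stages, and in Vip+ and Avp+ nuclei. In early SCN neurons the 100 features took 0.876% of UMIs in the 4048 nuclei of GD17.5 and 0.921% in the 3315 nuclei of PND2. The 236 Vip+ nuclei of GD17.5 had 1.34% and the 1262 of PND2 had 1.43%, near the 1.41% and 1.42% of PND10. Avp+ nuclei had 1.93% (1.76% to 2.12%) in 8 nuclei of GD17.5 and 1.83% (1.77% to 1.89%) in 46 nuclei of PND2. The summed levels of Vip+ and Avp+ nuclei at the first stages were thus near those of PND10, with 1 library at each stage and no test. This holds for the sum only, and single features could differ, as feature 29 did in Vip+ nuclei (described below). In the 8 Avp+ nuclei of GD17.5, 29 of the 100 features had 0 UMIs.

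Relative to Nms+ nuclei, the median feature was at 0.220 of the (CPM + 5) level in early SCN neurons of GD17.5 and at 0.240 in those of PND2. Over all eligible rows the medians were 1.00 and 0.961. At GD17.5, 91 features were below 50% of the Nms+ level and 27 below 10%, and at PND2 94 and 18 were. The choice of features for a high level in Nms+ nuclei lowers these ratios by itself.

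Features 9 and 76 stood nearest to the Nms+ level at GD17.5. Feature 9 was at 56.8 CPM in early SCN neurons of GD17.5 (Poisson interval 54.0 to 59.8 CPM), against 67.6 CPM in Nms+ nuclei, and at 3.87 CPM (3.04 to 4.85 CPM) at PND2. It was at 13.4 CPM in Vip+ nuclei of GD17.5 and 1.37 CPM in those of PND2, and at 0.802 to 7.93 CPM in the Avp+, Vip+ and extra-SCN neurons of the PND10 and PND30 libraries. Early SCN neurons thus had a higher level at GD17.5 than at PND2, and the level was low in these other neurons of PND10 and PND30. Nms+ nuclei and mature astrocytes of PND30 replicate 2 had higher levels. They are other clusters, so that no time course within 1 cell type is shown. Feature 76 was at 327 CPM at GD17.5 and 324 CPM at PND2, against 445 CPM in Nms+ nuclei.

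The opposite pattern was shown by feature 29, which was nearly absent from early SCN neurons. It was at 0.192 CPM at GD17.5 and 9.54 CPM at PND2, compared with 2900 CPM in Nms+ nuclei. In Vip+ nuclei it was at 17.3 CPM at GD17.5, 168 CPM at PND2, and 1470 and 1723 CPM in the PND10 libraries. The level in Vip+ nuclei was thus higher at each later stage up to PND10 and was lower at PND30, a decrease that edgeR called (log2 change -0.53, adjusted p = 0.0188). Features 7 and 8 were also near 0 in early SCN neurons, at 0.924 and 1.19 CPM at GD17.5.

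From GD17.5 to PND2, 93 features had at least 5 CPM in early SCN neurons of either library. Of these, 5 were 2-fold higher at PND2 and 1 was lower, where 1.4% and 1.73% of 12450 rows were. Among the 3633 eligible rows the shares were 2.06% and 0.743%. The 5 were features 29, 44, 66, 86 and 96, and the 1 was feature 9. Feature 86 was at 40.6 and 127.9 CPM, the largest ratio of (CPM + 5) of them at 2.92. The median ratio of the 93 features was 1.03, compared with 0.959 over all rows tested.

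**Figure D5:**
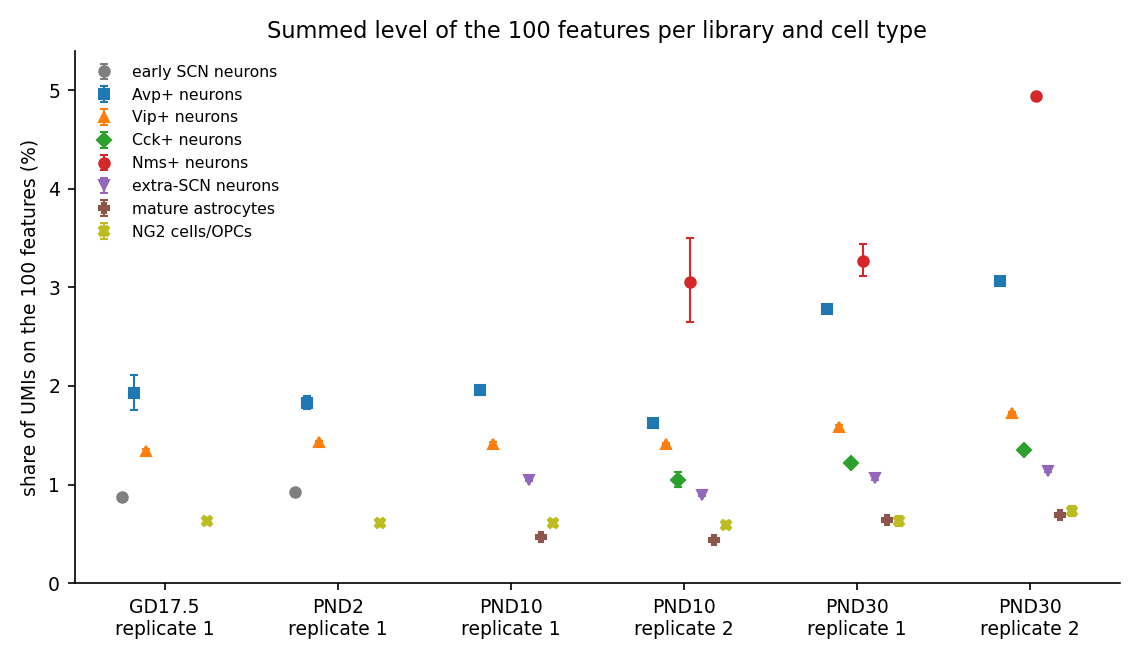
Points give the share of UMIs on the 100 features (vertical axis, in %) in each library (horizontal axis) and cell type, for groups of at least 5 nuclei. Bars are exact 95% Poisson intervals, which cover counting error only and are often smaller than the points. Nms+ nuclei of PND30 replicate 2 are highest at 4.94%, and Avp+ nuclei lie at 2.78% and 3.06% at PND30 and below 2% at the stages before.

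Several features lay side by side in the table. Of the 100, 16 were in 7 runs of adjacent rows, the longest of 3 rows (features 16, 22 and 39, and features 41, 61 and 69). Of 46 different eligible rows next to a feature on the list, 16 (34.8%) were themselves on it, whereas the list held 2.75% of all eligible rows. Features 17 and 31, both among the 5 with the largest ratio within PND30 replicate 2, were such neighbours. The sources used here do not state what the order of rows means for the count table, and whether neighbouring rows share reads was not tested.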

How the data were processed

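The authors made 10x Genomics 3' libraries and counted UMIs with Cell Ranger 5.0.1 on mm10, with Seurat 4 for clustering, per the submitters' processing notes. The raw counts per row and barcode were deposited without normalization, with a table that gives the cluster of each nucleus kept by the authors (at least 750 UMIs, 500 to 10000 genes, limits on mitochondrial and ribosomal reads, doublets removed by score). Nuclei were placed in libraries by barcode within their stage.

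The members and lists were chosen with earlier results of these data known. Features 1 to 10, the 2 highest and 2 lowest in Avp+ nuclei of PND30 replicate 2 over replicate 1, the 2 highest at GD17.5 relative to Nms+ nuclei, and at most 2 called in each direction per cell type were described singly. Counts were summed per library and cell type and tested with edgeR 4.0.16 (TMM, filterByExpr, quasi-likelihood test, Benjamini-Hochberg adjustment over all features, threshold 0.05), run in R 4.3.3. DESeq2 1.42.0 was an alternative. Simulated counts held 200 features with a log2 change of 2, of which 81.5% were recovered with 4 false calls among 14509 features in Avp+ nuclei, and 91% with 6 among 12400 in Vip+ nuclei. CPM, intervals and thinning used Python 3.11.15, numpy 2.4.6 and scipy 1.17.1.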

Additional observations from a re-analysis of the deposited data

Results flagged for a closer look

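Barcodes outside the authors' annotation were used in no comparison, and some features of the list were higher there than in the pooled Nms+ nuclei, which is why they are given. In PND30 replicate 2, barcodes below the limits on UMIs and genes had 372 CPM of feature 55, 306 CPM of feature 96, 238 CPM of feature 90 and 99.96 CPM of feature 70, against 67.6 and 82.2 CPM of features 55 and 96 in Nms+ nuclei. Barcodes of this library within the limits, but not annotated, had 111 CPM of feature 96. Features 55 and 96 were also among those higher in microglia than in Nms+ nuclei of this library, and the part of such barcodes in those levels was not tested. In PND2, barcodes outside the annotation had 84.9 CPM (within the limits) and 148 CPM (below them) of feature 55. In GD17.5, barcodes below the limits had 82.0 CPM of feature 9, where early SCN neurons had 56.8 CPM.

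In 2 features every PND30 library lay above both PND10 libraries in Avp+ nuclei and below both in Vip+ nuclei. Of all features tested, 19.3% lay above in Avp+ nuclei and 22.6% below in Vip+ nuclei. The share that did both was not counted, so that nothing is read from the 2. The log2 changes of feature 75 were 0.25 in Avp+ and -1.51 in Vip+ nuclei, and those of feature 80 were 0.25 and -0.0707. The Vip+ change of feature 80 was slight, with 122 UMIs in PND30 replicate 1. The difference between the cell types was not tested.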

How the results depend on the processing

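The Avp+ comparison of PND30 with PND10 depended most on the settings. Over all features edgeR called 13, compared with 678 with the replicate block, 201 with DESeq2, 64 without a filter on low counts and 0 to 159 when 1 library was left out. Of the 100 features it called 1, compared with 46 with the replicate block, 28 with DESeq2, 10 without a filter, 0 on the list chosen on PND30 nuclei only, and 0 to 23 with 1 library left out. In Vip+ nuclei 826 features were called, compared with 1390 with the replicate block, 381 with DESeq2 and 0 to 1151 with 1 library left out, and of the 100 features 25 (18 higher, 7 lower), compared with 42, 13 and 0 to 36, and with 24 (11 higher, 13 lower) on the list chosen on PND30 nuclei only. In Vip+ nuclei DESeq2 gave an adjusted p for 5868 features and for 73 of the 100, where edgeR did so for 12484 and for 100. Its counts of 381 and 13 are thus out of fewer features than those of edgeR. A library left alone in its stage is assumed to vary like the others. Only 2 replicate numbers are shared, and deviations of same-numbered libraries correlated at 0.273 in Avp+ and 0.0753 in Vip+ nuclei, so that pairing is not established. The rule kept 69 to 98 features under other settings, and 7 to 93 when 1 library was left out, the 7 without PND30 replicate 2. The ratio of summed Avp+ levels at PND30 (1.10) was 1.03 as a median over features and 0.983 without the 10 highest, and that of early SCN neurons, PND2 over GD17.5 (1.05), was 1.04 as a median, 0.991 without the 10 highest and 1.03 as a mean over nuclei. Thinned to 1000 or 3000 UMIs, Nms+ nuclei had UMIs of 25 or 47 features, and Avp+ nuclei of 16 or 31. The cause of these shifts was not tested. Depth limits what 7 and 5 Nms+ nuclei outside PND30 replicate 2 can show.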
